A study of Mus musculus with 6 samples.

Results

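The 42 genes described here copy the DNA and divide the cell. They comprise 20 genes of replication licensing and S phase, 5 regulators of the G1/S transition and 17 genes of mitosis. They were listed by gene symbol, with earlier results of these data known. All 42 were found among the 54532 genes of the deposited count table, and 34 of them had enough counts to be tested among 15449 genes. RNA-Seq libraries had been made from the livers of 3 g*Spns1*-cKO mice and 3 control mice, 1 library per mouse. *Spns1* encodes a transporter that exports lysolipids from lysosomes. The g*Spns1*-cKO mice were *Spns1 fl/fl*, with loxP sites around exon 3, and carried Rosa26Cre-ERT2, a tamoxifen-dependent recombinase that acts in all cell types and not in hepatocytes alone. They received tamoxifen i.p. at 50 mg/kg on postnatal days 11, 13 and 15. The controls are called wild type in the sample labels and *Spns1 fl/fl* littermates in the methods, so that by the methods the floxed alleles were common to both groups. The methods give a C57BL/6 background for the mice of the study. The sources used here do not state the age at collection or the sex of these mice, nor whether the controls received tamoxifen.

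Before S phase, the origin recognition complex, Cdc6 and Cdt1 load the MCM helicase, a ring of the Mcm2 to Mcm7 proteins, onto replication origins. Mcm10, Cdc45 and the GINS complex then turn the loaded rings into active helicases, and polymerases, PCNA, the flap nuclease Fen1 and the ligase Lig1 synthesise and join the new strands. Cyclin D and cyclin E with their kinases relieve the block that retinoblastoma proteins place on E2F factors, which drive many replication genes, whereas mitotic genes are mostly transcribed later, in G2 and M phase. Most hepatocytes of a grown liver are quiescent and re-enter the cycle after injury or loss of tissue, while young livers and resident or incoming non-parenchymal cells can hold dividing cells.

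The libraries held between 30350002 and 35295611 counts. The trimmed mean of M values (TMM) scaling factors, which set the libraries to a common scale, were 0.834 to 0.873 in control livers and 1.16 to 1.18 in g*Spns1*-cKO livers, and the counts per scaled library size (CPM) below are on this scale. *Spns1* itself was measured at 35.9, 50.7 and 34.6 CPM in control mice and at 17.9, 30.6 and 17.8 CPM in g*Spns1*-cKO mice, with no overlap between the groups (log2 fold change -0.87, SE 0.26, adjusted p = 0.0300). This call was lost without control replicate 2, g*Spns1*-cKO replicate 1 or g*Spns1*-cKO replicate 3 (adjusted p = 0.0785, 0.0910 and 0.0830), with scaling by library size only (-0.43, adjusted p = 0.213) and with upper-quartile scaling (-0.74, adjusted p = 0.0635), and these counts cover the whole gene and not exon 3 alone. The 8 hepatocyte markers summed to between 97830 and 113000 CPM in control livers and to between 60640 and 69590 CPM in g*Spns1*-cKO livers, and 4 of the 8 fell. The rest did not pass. Their estimates were positive for *Cps1* and *Cyp3a11* (log2 fold change 0.36 and 0.52, adjusted p = 0.1 and 0.0518) and negative for *Ttr* and *Hnf4a* (-0.47 and -0.42, adjusted p = 0.0545 and 0.0666). The 11 macrophage markers all rose, from summed levels of 145 to 218 CPM to between 646.5 and 905 CPM, with the highest sum in g*Spns1*-cKO replicate 1. Of the cholangiocyte, stellate cell and endothelial markers, 6 of 7, 5 of 7 and 5 of 7 rose. Of the tested erythroid, neutrophil and lymphocyte markers, 3 of 7, 2 of 2 and 2 of 9 rose, and 1 erythroid and 1 lymphocyte marker fell (*Alas2*, of haem synthesis, log2 fold change -3.17, adjusted p = 0.000772, and *Cd4*, -1.26, adjusted p = 0.0212), with erythroid sums of 151 to 178 CPM in control and 236 to 313 CPM in g*Spns1*-cKO livers, and no marker of any list was at 0 in every library. Some markers that rose had enough counts to be tested only through the g*Spns1*-cKO group, so their calls are no independent support. Among them were *Ncr1* of the lymphocyte list (1, 0 and 0 against 16, 18 and 22 counts) and *Cftr* of the cholangiocyte list (5, 1 and 2 against 17, 26 and 26). In bulk tissue, fewer cells of a type and less RNA per cell cannot be told apart, and the part of these other cell types in the results on replication and mitosis genes was not tested.

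Of the 34 tested genes, 7 rose and 3 fell in the g*Spns1*-cKO group at a threshold of 0.05 (adjusted p of the quasi-likelihood test in edgeR, Benjamini-Hochberg over every gene tested), and 24 did not pass. Across all genes tested, 21.3% were higher and 20.5% lower, so the shares of the 34 that were higher (20.6%) and lower (8.82%) were not above those of the liver transcriptome as a whole. Their median log2 fold change was 0.13, beside 0.014 for all genes. The same 10 genes were those without overlap between the groups in CPM among the 34, 7 higher and 3 lower, against 27.1% and 26.9% of all genes tested. The changed genes belonged to the licensing and S phase class (5 higher, 2 lower of 18 tested) and to the G1/S regulators (2 higher, 1 lower of 5), and none of the 11 tested mitosis genes passed.

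**Figure D1:**
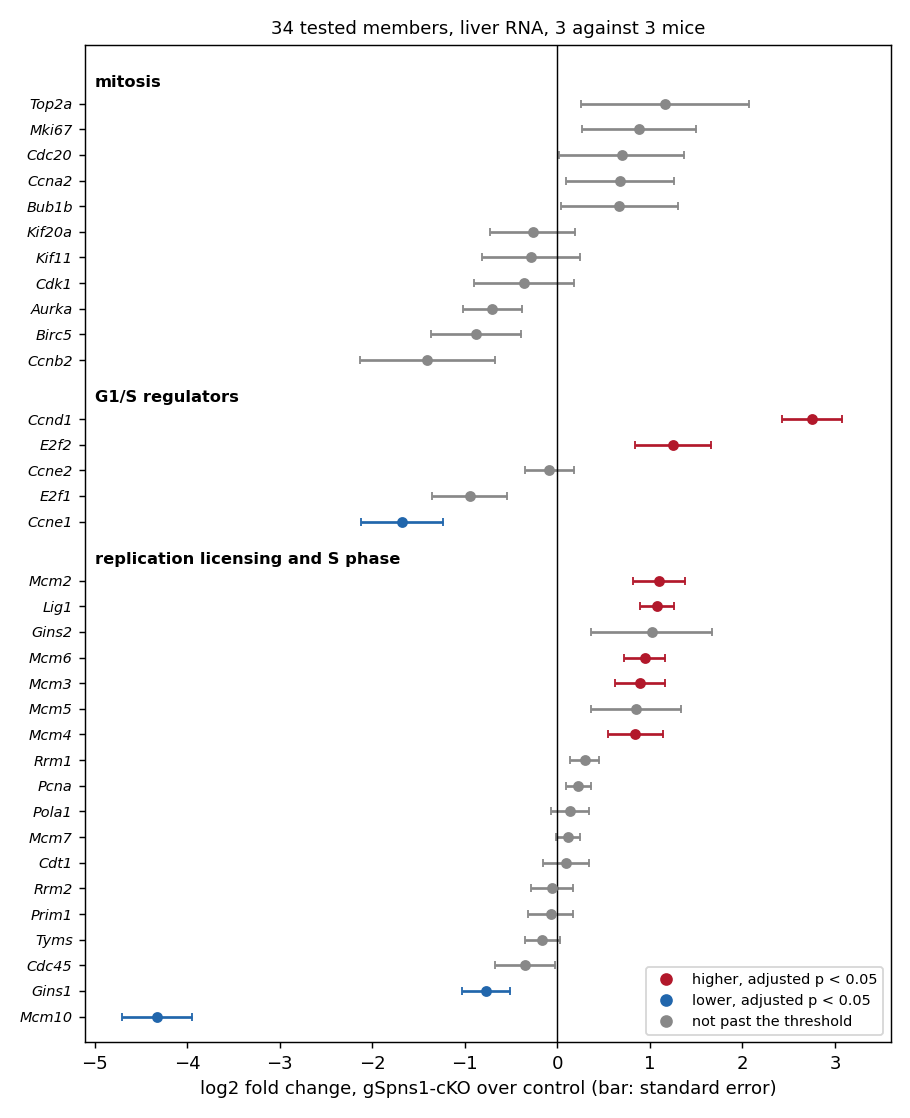
Log2 fold changes of the 34 tested genes, g*Spns1*-cKO over control, by class; points are estimates of edgeR and bars are standard errors. The licensing and S phase class holds 5 genes near a log2 fold change of 1 that passed and *Mcm10* at -4.32, whereas the bars of the mitosis genes are wide and none passed.

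Of the 6 genes of the MCM helicase, *Mcm2*, *Mcm3*, *Mcm4* and *Mcm6* rose by 1.80- to 2.15-fold, and *Lig1*, which seals nicks between Okazaki fragments, rose 2.11-fold. Against them stood *Mcm10*, a factor that joins the helicase to the replication fork, which was 20.02-fold lower, and *Gins1*, a subunit of the GINS complex, which was 1.71-fold lower. The other 11 tested genes of the class did not pass, and its shares higher (27.8%) and lower (11.1%) stand beside 21.3% and 20.5% of all genes.

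*Mcm2* was at 3.09, 4.29 and 3.68 CPM in control replicates 1, 2 and 3 and at 11.7, 5.81 and 6.26 CPM in g*Spns1*-cKO replicates 1, 2 and 3 (log2 fold change 1.10, SE 0.28, adjusted p = 0.0114). All g*Spns1*-cKO mice were above all controls, and replicate 1 was far above its group. *Mcm6* was at 4.34, 4.25 and 5.65 CPM in control mice and at 12.1, 7.45 and 7.86 CPM in g*Spns1*-cKO mice (0.95, SE 0.22, adjusted p = 0.00652), again without overlap and with replicate 1 highest. *Mcm3* was at 6.15, 3.25 and 3.56 CPM in control mice and at 10.3, 6.41 and 7.40 CPM in g*Spns1*-cKO mice (0.90, SE 0.27, adjusted p = 0.0251). *Mcm4* was at 3.52, 1.82 and 2.85 CPM in control mice and at 6.73, 3.88 and 4.07 CPM in g*Spns1*-cKO mice (0.84, SE 0.30, adjusted p = 0.0438). For *Mcm3* and *Mcm4* the highest control, replicate 1, lay just under the lowest g*Spns1*-cKO mouse. The calls of *Mcm3* and *Mcm4* were lost without control replicate 2 (adjusted p = 0.0905 and 0.139), control replicate 3 (0.0928 and 0.0966), g*Spns1*-cKO replicate 1 (0.0707 and 0.156) or g*Spns1*-cKO replicate 3 (0.0507 and 0.0578). Those of *Mcm2* and *Mcm6* held whichever mouse was left out, with log2 fold changes of 0.71 to 1.28 and of 0.69 to 1.08.

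The remaining helicase subunits did not pass. *Mcm5* was at 1.92, 1.59 and 1.27 CPM in control mice and at 5.39, 1.59 and 1.68 CPM in g*Spns1*-cKO mice, so that only replicate 1 lay above the controls (log2 fold change 0.85, SE 0.49, adjusted p = 0.198, and 0.03 without that mouse). *Mcm7*, which overlaps *Cops6* and *Ap4m1* on the opposite strand, was at 13.1 to 15.5 CPM in control and 14.1 to 17.3 CPM in g*Spns1*-cKO livers (0.12, SE 0.13, adjusted p = 0.487). Per kilobase of gene length, mean levels of the 6 subunits spanned 0.399 (*Mcm5*) to 3.23 (*Mcm7*) CPM per kb in control livers and 0.723 to 3.51 CPM per kb in g*Spns1*-cKO livers.

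**Figure D2:**
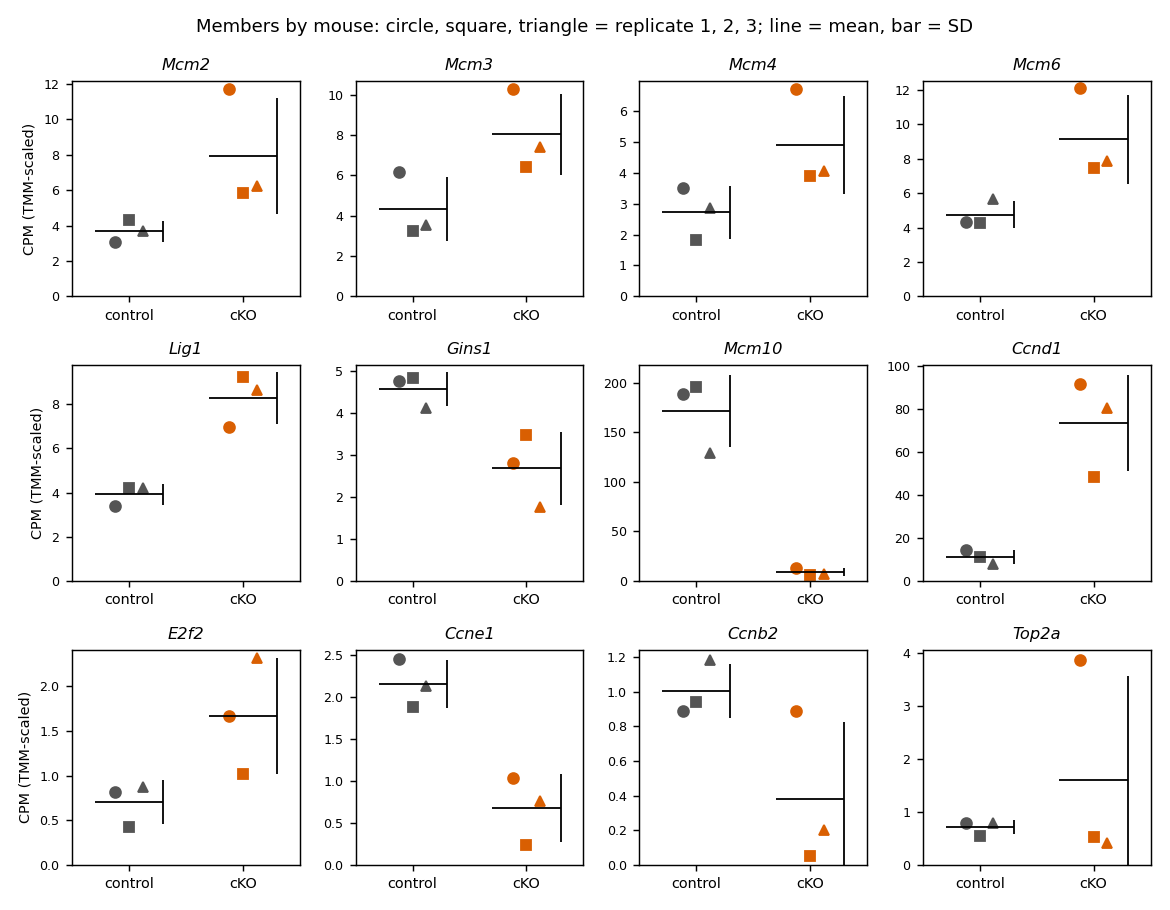
TMM-scaled CPM of 12 genes in each mouse, on linear axes that start at 0; circles, squares and triangles are replicates 1, 2 and 3, horizontal lines are group means and vertical bars are SD (n = 3). The groups do not overlap for the 10 genes that passed, while *Ccnb2* and *Top2a* show g*Spns1*-cKO replicate 1 apart from the other two g*Spns1*-cKO mice.

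*Mcm10* went the other way from *Mcm2*, *Mcm3*, *Mcm4* and *Mcm6*, the helicase genes that rose. It was at 188, 195 and 129 CPM in control mice and at 12.9, 5.68 and 7.05 CPM in g*Spns1*-cKO mice, from 5298, 6013 and 3270 counts against 465, 218 and 277 (log2 fold change -4.32, SE 0.38, adjusted p = 0.000431). No control came near any g*Spns1*-cKO mouse, and leaving out each mouse in turn gave -4.75 to -4.10, with every call kept. Per kilobase, *Mcm10* was at 22.2 CPM in control livers, 25.0 times the median of the 6 helicase subunits (0.889), and at 1.11 CPM in g*Spns1*-cKO livers, 0.669 times their median (1.66). The *Mcm10* mRNA thus exceeded every *Mcm2* to *Mcm7* mRNA per length in control livers and lay within their range in g*Spns1*-cKO livers. The gene lies at chr2:4989714-5012791 on the minus strand (GRCm38), and no other gene with at least 10 counts overlapped it.

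*Lig1* was the steadiest of the genes that rose. It was at 3.38, 4.22 and 4.19 CPM in control mice and at 6.98, 9.25 and 8.65 CPM in g*Spns1*-cKO mice (log2 fold change 1.08, SE 0.18, adjusted p = 0.00121), with 0.97 to 1.18 on leaving out each mouse. Here g*Spns1*-cKO replicate 1 was the lowest of its group, unlike for the MCM genes. *Lig1* overlaps *Zswim9* on the opposite strand over 1439 bases, and the log2 fold change of *Zswim9* was 0.99. Whether counting used the strand is not given in the sources used here, so reads of such pairs may be shared.

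*Gins1* was at 4.77, 4.84 and 4.11 CPM in control mice and at 2.81, 3.47 and 1.76 CPM in g*Spns1*-cKO mice (log2 fold change -0.77, SE 0.26, adjusted p = 0.0348). The groups did not overlap, but the call was lost without control replicate 1, 2 or 3 (adjusted p = 0.0742, 0.0875 and 0.0519) or g*Spns1*-cKO replicate 3 (0.125). It was also lost with scaling by library size only (-0.33, adjusted p = 0.314). *Gins2*, a second GINS subunit, was at 0.130 to 0.593 CPM in control and 0.313 to 1.00 CPM in g*Spns1*-cKO livers (1.02, SE 0.66, adjusted p = 0.238).

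The other tested genes of the class kept log2 fold changes between -0.35 and 0.29. They were the licensing factor *Cdt1* (0.09, SE 0.25), the helicase activator *Cdc45* (-0.35, SE 0.33), the sliding clamp *Pcna* (0.23, SE 0.13) and the ribonucleotide reductase subunits *Rrm1* (0.29, SE 0.16) and *Rrm2* (-0.06, SE 0.22). Also among them were the thymidylate synthase *Tyms* (-0.16, SE 0.19) and the primase-polymerase genes *Pola1* (0.14, SE 0.21) and *Prim1* (-0.07, SE 0.24). Adjusted p was between 0.153 (*Rrm1*) and 0.858 (*Rrm2*), and for all 8 genes the groups overlapped. *Pcna* was the most abundant of them, at 26.1 to 34.8 CPM in control and 32.4 to 40.1 CPM in g*Spns1*-cKO livers. Scaling by library size only moved the median of all genes from 0.014 to 0.46. With it, *Cdc45*, *Rrm2*, *Tyms* and *Prim1* moved above 0 along with the other genes, and *Mcm7*, *Pcna*, *Rrm1* and *Pola1* passed as higher (adjusted p = 0.00536, 0.00185, 0.00244 and 0.0340). Under that scaling 47.2% of all genes were higher.

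The remaining pair of the class had too few counts to be tested. *Fen1* had 3, 2 and 3 counts in control mice and 18, 8 and 20 counts in g*Spns1*-cKO mice, every g*Spns1*-cKO mouse above every control, which is a ratio of 4.25 after scaling (95% counting interval 1.99 to 10.4). Such ratios were computed only for genes with at most 3 counts in every control and at least 10 counts over the g*Spns1*-cKO mice. That choice favours high ratios, so the ratio and its interval are no independent support. *Fen1* overlaps *Tmem258* on the opposite strand. The licensing factor *Cdc6* had 8, 1 and 4 counts in control mice and 24, 7 and 6 counts in g*Spns1*-cKO mice, with overlap.

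**Figure D3:**
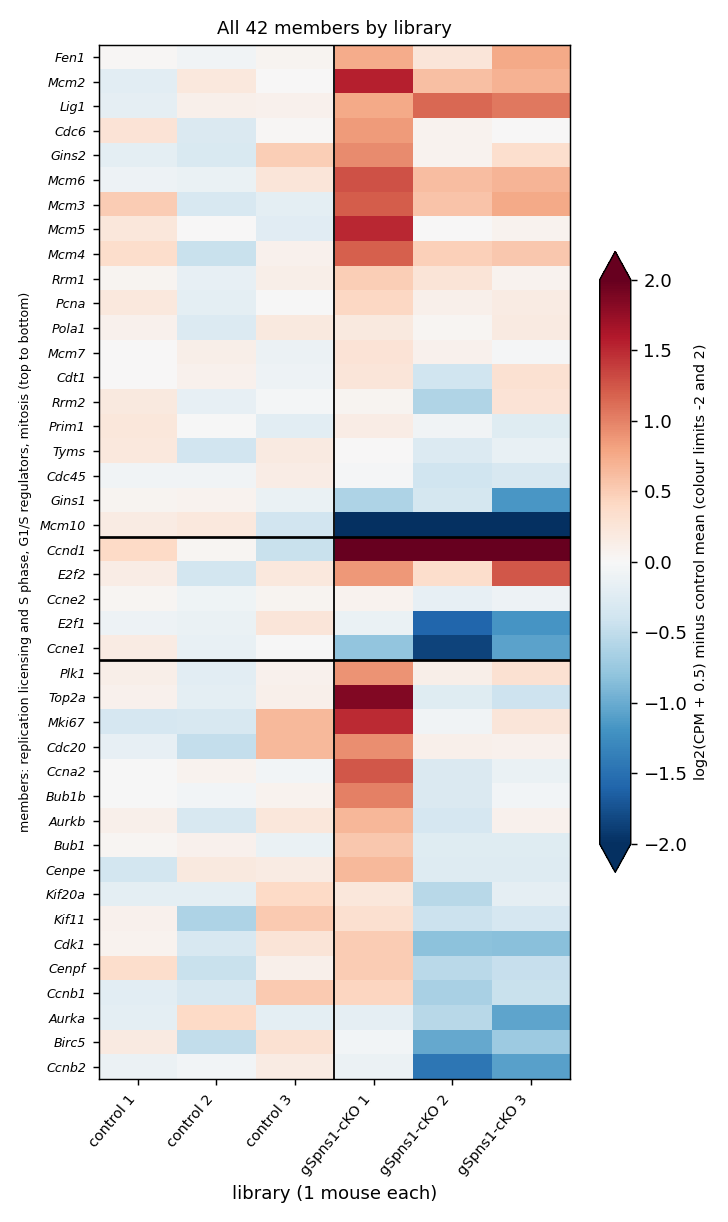
All 42 genes in each of the 6 libraries, as log2(CPM + 0.5) minus the mean of the 3 controls, with colours limited to -2 and 2. *Mcm2*, *Mcm3*, *Mcm4* and *Mcm6* are red in all g*Spns1*-cKO mice, *Mcm10* is blue in all of them, and the mitosis genes at the bottom are red or pale in g*Spns1*-cKO replicate 1 and pale or blue in replicates 2 and 3.

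Promoters of these genes differ in the letters known from cell cycle promoters. RefSeq windows (GRCm38.p6) from 250 bases before to 50 bases after the start site were found for 34 of the 42 genes and searched on both strands for the E2F letters TTTCCCGC, TTTCGCGC, TTTGCCGC and TTTGGCGC, for the cell cycle homology region (CHR) letters TTTGAA and TTCGAA, and for CCAAT. A window counts once however many matches it holds, and matches of different motifs may overlap. E2F letters were in 7 of 17 licensing and S phase windows (41.2%) and in 1 of 14 mitosis windows (7.14%, *Cdk1*), beside 2.32% of 27025 windows of all genes. CHR letters were in 4 of 17 (23.5%) and in 11 of 14 (78.6%), beside 19.4% of all windows. CCAAT was in 12 of 17 (70.6%) and 13 of 14 (92.9%), beside 37.9%. Of the 5 genes that rose and have a window, *Mcm3*, *Mcm6* and *E2f2* held E2F letters and *Mcm2* and *Lig1* did not. Neither *Mcm10* nor *Ccne1*, the lowered genes with a window, held E2F or CHR letters. Such matches are descriptions of the sequence and were not tested as binding sites.

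The 200 bases before the start site are shown for the 3 licensing and S phase genes with the largest changes, and for *Mcm6*, chosen after its values were seen because it holds E2F letters. They are written 5' to 3' on the gene's strand in lower case, with E2F, CHR and CCAAT letters of either strand in capitals.
Mcm10 (chr2:5012792-5012991, minus strand): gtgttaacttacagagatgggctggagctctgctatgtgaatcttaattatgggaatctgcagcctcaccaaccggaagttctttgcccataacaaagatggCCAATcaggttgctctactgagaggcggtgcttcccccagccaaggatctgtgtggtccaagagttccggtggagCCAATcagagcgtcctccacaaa
Mcm2 (chr6:88898781-88898980, minus strand): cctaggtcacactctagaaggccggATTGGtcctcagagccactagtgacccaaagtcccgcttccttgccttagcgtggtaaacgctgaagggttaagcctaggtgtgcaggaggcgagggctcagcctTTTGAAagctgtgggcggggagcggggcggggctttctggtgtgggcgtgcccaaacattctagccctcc
Lig1 (chr7:13276975-13277174, plus strand): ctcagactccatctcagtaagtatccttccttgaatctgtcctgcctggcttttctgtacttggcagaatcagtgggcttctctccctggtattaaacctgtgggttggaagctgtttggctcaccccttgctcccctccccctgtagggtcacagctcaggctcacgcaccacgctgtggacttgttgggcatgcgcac
Mcm6 (chr1:128359706-128359905, minus strand): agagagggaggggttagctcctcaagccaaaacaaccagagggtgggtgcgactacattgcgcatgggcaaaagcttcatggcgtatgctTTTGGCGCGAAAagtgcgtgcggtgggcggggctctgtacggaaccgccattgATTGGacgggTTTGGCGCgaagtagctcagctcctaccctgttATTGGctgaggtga
The *Mcm10* window shows CCAAT at positions -98 and -23 from the start site. In the *Mcm2* window the capitals mark CCAAT on the other strand at -175 and CHR letters at -70. *Mcm6* holds E2F letters at -110 and -106, which overlap on opposite strands, and at -47, with CCAAT on the other strand at -57 and -14. The *Lig1* window is the first of 3 that RefSeq lists for the gene and holds none of these letters.

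Among the G1/S regulators, the D-type cyclin *Ccnd1* rose strongly while the E-type cyclin *Ccne1* fell. *Ccnd1*, which partners Cdk4 and Cdk6 early in G1, was at 14.2, 10.9 and 7.67 CPM in control mice and at 91.8, 48.5 and 80.3 CPM in g*Spns1*-cKO mice. It was 6.73-fold higher (log2 fold change 2.75, SE 0.32, adjusted p = 0.00119), without overlap and with every call kept on leaving out each mouse (2.54 to 2.98). It overlaps *Oraov1* on the opposite strand, whose log2 fold change was -0.28. *Ccne1*, which activates *Cdk2* at the start of S phase, was at 2.45, 1.88 and 2.13 CPM in control mice and at 1.03, 0.235 and 0.763 CPM in g*Spns1*-cKO mice. It was 3.19-fold lower (-1.67, SE 0.44, adjusted p = 0.0124), with every g*Spns1*-cKO mouse below every control and -2.10 to -1.27 on leaving out each mouse. The related cyclin *Ccne2* was at 1.53 to 1.74 CPM in control and 1.43 to 1.75 CPM in g*Spns1*-cKO livers (-0.08, SE 0.26, adjusted p = 0.818).

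The E2F activators differed in sign. *E2f2* was at 0.818, 0.422 and 0.869 CPM in control mice and at 1.67, 1.02 and 2.32 CPM in g*Spns1*-cKO mice (log2 fold change 1.25, SE 0.41, adjusted p = 0.0328), without overlap. That call was lost without control replicate 1 or 2 (adjusted p = 0.0522 and 0.106) and without g*Spns1*-cKO replicate 1 or 3 (0.0516 and 0.159). *E2f1* was at 5.16, 5.03 and 6.72 CPM in control mice and at 5.06, 1.54 and 2.19 CPM in g*Spns1*-cKO mice, so that g*Spns1*-cKO replicate 1 lay among the controls and the other g*Spns1*-cKO mice under them. Its log2 fold change of -0.95 (SE 0.41) did not pass (adjusted p = 0.0946). Without g*Spns1*-cKO replicate 1 it was -1.60 (SE 0.27, adjusted p = 0.000852), and DESeq2 and limma-voom called it lower with all mice (adjusted p = 0.0305 and 0.0341).

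**Figure D4:**
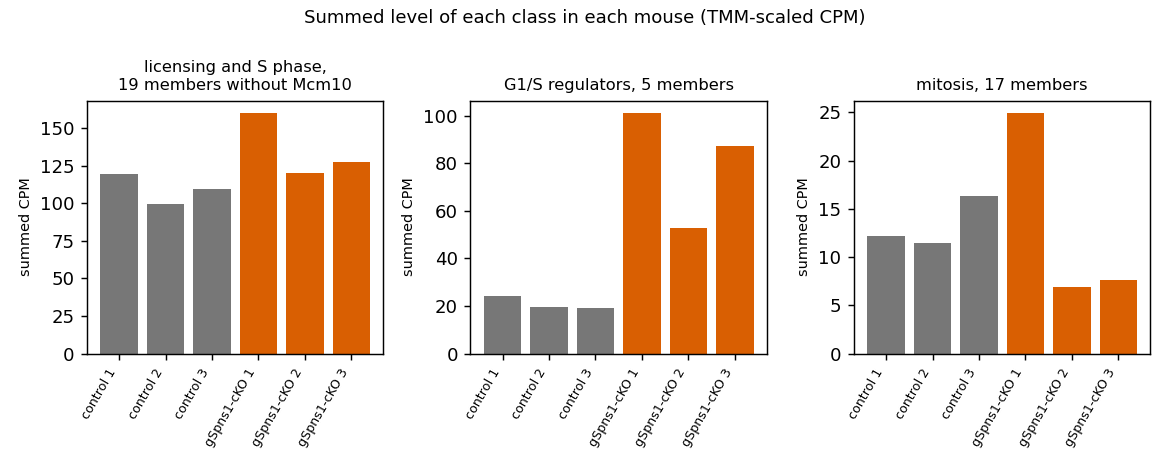
Summed TMM-scaled CPM of each class in each mouse, with bars from 0: 19 licensing and S phase genes without *Mcm10*, 5 G1/S regulators, and 17 mitosis genes. Without *Mcm10* the licensing and S phase sum was 99.7 to 119 CPM in control and 120 to 160 CPM in g*Spns1*-cKO mice. With *Mcm10* it was lower in every g*Spns1*-cKO mouse (126 to 173 CPM) than in every control (239 to 308 CPM). The mitosis sum is highest in g*Spns1*-cKO replicate 1 (25.0 CPM) and lowest in replicates 2 and 3 (6.88 and 7.61 CPM), and the G1/S sum, mostly *Ccnd1*, is higher in every g*Spns1*-cKO mouse.

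No mitosis gene passed between the groups, and the g*Spns1*-cKO mice differed widely among themselves. Over all 17 genes the summed level was 12.2, 11.5 and 16.3 CPM in control mice and 25.0, 6.88 and 7.61 CPM in g*Spns1*-cKO mice, so that 1 g*Spns1*-cKO mouse was above all controls and the other two g*Spns1*-cKO mice below all of them. All 17 genes had their highest g*Spns1*-cKO level in replicate 1, and 11 of them their highest level of all 6 mice, whereas 39.3% of all genes tested were highest in replicate 1 among g*Spns1*-cKO mice. Licensing and S phase genes leaned the same way, with 15 of 20 highest in replicate 1 among g*Spns1*-cKO mice and 10 highest of all 6. Of the 11 tested mitosis genes, 6 were above the control maximum in replicate 1, while 8 were below the control minimum in replicate 2 and 7 in replicate 3. Over all genes tested, the shares beyond the controls in a single mouse, or highest of all 6 mice, were not computed. The shares with every g*Spns1*-cKO mouse above or below all controls were 27.1% and 26.9%, so these counts are descriptions only. The sum of the macrophage markers, too, was highest in g*Spns1*-cKO replicate 1 (905 CPM, beside 646.5 and 686). That of the hepatocyte markers was lowest there (60640 CPM, beside 69590 and 68450). The stellate cell and endothelial sums were also highest in replicate 1 of the g*Spns1*-cKO mice (231.9 and 254.8 CPM). Erythroid and neutrophil sums were lowest there (235.7 and 5.06 CPM), and cholangiocyte and lymphocyte sums were highest in replicate 2 (299.6 and 7.38 CPM). Not every marker followed its sum. In g*Spns1*-cKO replicates 1, 2 and 3 the hepatocyte marker *Serpina1c* had 23761, 15388 and 16657 counts and the macrophage marker *Gpnmb* 2309, 2682 and 3029. The part of these cell types in the difference between the mice was not tested, nor was that of age, sex or litter, which are not stated.

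*Top2a*, the topoisomerase that untangles chromosomes before they separate, showed the widest spread. It was at 0.783, 0.552 and 0.790 CPM in control mice and at 3.86, 0.521 and 0.407 CPM in g*Spns1*-cKO mice (log2 fold change 1.17, SE 0.91, adjusted p = 0.347). *Mki67*, the proliferation marker that coats mitotic chromosomes, was at 0.676, 0.682 and 1.82 CPM in control mice and at 3.67, 0.912 and 1.25 CPM in g*Spns1*-cKO mice (0.89, SE 0.62, adjusted p = 0.285). In both, replicate 1 alone lay above the controls. *Ccna2*, the cyclin of S and G2 phase, was at 0.711, 0.779 and 0.672 CPM in control mice and at 2.39, 0.495 and 0.611 CPM in g*Spns1*-cKO mice (0.68, SE 0.58, adjusted p = 0.378). The spindle checkpoint kinase gene *Bub1b* was at 0.391, 0.357 and 0.435 CPM in control mice and at 1.31, 0.235 and 0.356 CPM in g*Spns1*-cKO mice (0.67, SE 0.63, adjusted p = 0.424). *Cdc20*, the activator of the anaphase-promoting complex, was at 0.285, 0.130 and 0.869 CPM in control mice and at 1.17, 0.443 and 0.433 CPM in g*Spns1*-cKO mice (0.70, SE 0.68, adjusted p = 0.438). These 5 genes had positive estimates that rest on 1 mouse, and without it they were between -0.60 and 0.06.

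A second set of mitosis genes had negative estimates. *Ccnb2*, a cyclin partner of *Cdk1*, was at 0.889, 0.942 and 1.19 CPM in control mice and at 0.890, 0.0521 and 0.204 CPM in g*Spns1*-cKO mice (log2 fold change -1.40, SE 0.73, adjusted p = 0.152). Replicate 1 lay level with the controls and the other g*Spns1*-cKO mice far below, from 2 and 8 counts. *Cdk1*, the mitotic kinase, was at 1.42, 0.974 and 1.70 CPM in control mice and at 2.11, 0.547 and 0.534 CPM in g*Spns1*-cKO mice (-0.36, SE 0.54, adjusted p = 0.625). *Birc5*, which encodes survivin of the chromosomal passenger complex, was at 1.49, 0.747 and 1.66 CPM in control mice and at 1.20, 0.365 and 0.560 CPM in g*Spns1*-cKO mice (-0.88, SE 0.49, adjusted p = 0.174). *Aurka*, the centrosomal Aurora kinase, was at 2.88, 4.64 and 2.89 CPM in control mice and at 2.92, 2.14 and 1.37 CPM in g*Spns1*-cKO mice (-0.70, SE 0.32, adjusted p = 0.0987). The spindle motors *Kif11* and *Kif20a* had estimates of -0.28 (SE 0.53) and -0.27 (SE 0.46), with ranges of 0.357 to 1.38 and 0.640 to 1.23 CPM in control and of 0.469 to 1.14 and 0.391 to 1.03 CPM in g*Spns1*-cKO livers. In all of these the groups overlapped, and for *Ccnb2*, *Cdk1*, *Birc5* and *Aurka* only replicate 1 of the g*Spns1*-cKO mice reached or exceeded the control range.

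The letters before the start of *Top2a*, shown as an example of the mitosis class and chosen after its values were seen, are in capitals as above.
Top2a (chr11:99024190-99024389, minus strand): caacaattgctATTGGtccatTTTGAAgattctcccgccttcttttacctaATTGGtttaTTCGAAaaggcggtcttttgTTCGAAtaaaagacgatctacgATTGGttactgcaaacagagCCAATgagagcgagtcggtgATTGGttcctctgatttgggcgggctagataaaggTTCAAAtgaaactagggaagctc
They hold CHR letters at -179, -140, -120 and -23, and CCAAT on either strand at -189, -149, -98, -78 and -58.

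Of the 11 tested mitosis genes, 0 passed in edgeR and 1 (*Aurka*) was under an unadjusted p of 0.05, while DESeq2 called 0 and limma-voom 1 (*Ccnb2*, adjusted p = 0.0410). Without g*Spns1*-cKO replicate 1, 4 of the 11 were lower and none higher: *Ccnb2* (-2.93, SE 0.62, adjusted p = 0.00358), *Cdk1* (-1.33, SE 0.43, adjusted p = 0.0281), *Birc5* (-1.48, SE 0.49, adjusted p = 0.0333) and *Aurka* (-0.99, SE 0.33, adjusted p = 0.0312). In that fit 20.3% of all genes were lower and 20.2% higher. The licensing and S phase class then had 3 genes higher, *Mcm2* (0.71, adjusted p = 0.0245), *Mcm6* (0.69, adjusted p = 0.0183) and *Lig1* (1.18, adjusted p = 0.000740), and the same 2 genes lower, *Mcm10* and *Gins1* (-0.81, adjusted p = 0.0484). All 17 mitosis genes had their highest g*Spns1*-cKO level in replicate 1, so leaving it out lowers their estimates by construction. The 4 mitosis calls of that fit are therefore no independent support. In the 2 remaining g*Spns1*-cKO mice, *Mcm2*, *Mcm6* and *Lig1* were above and these 4 mitosis genes below all controls. *Ccnb2*, with 2 and 8 counts in these mice, had enough counts to be tested only through the controls. Its adjusted p, here and in limma-voom, is therefore no independent support. Leaving out any other mouse gave no call among the mitosis genes.

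**Figure D5:**
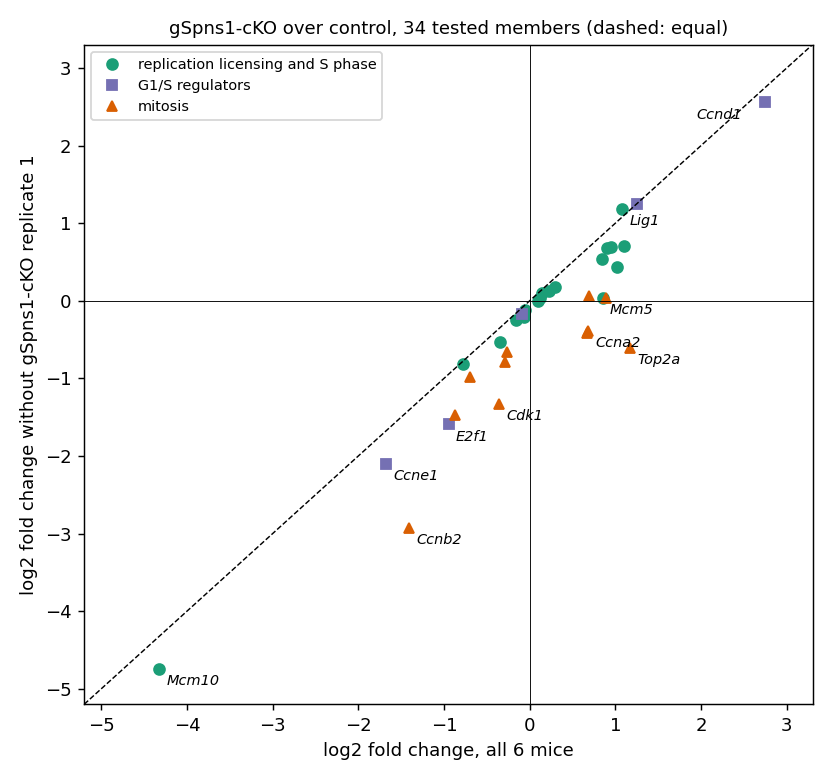
Log2 fold changes of the 34 tested genes with all 6 mice (x axis) and without g*Spns1*-cKO replicate 1 (y axis); the dashed line marks equal values. Most mitosis genes lie well below the line, *Top2a* going from 1.17 to -0.60 and *Ccnb2* from -1.40 to -2.93, while *Ccnd1*, *Lig1* and *Mcm10* lie near it.

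Set side by side, the licensing and S phase class had a median log2 fold change of 0.18 over 18 genes and the mitosis class one of -0.27 over 11 genes, a difference of 0.45. With scaling by library size only the medians were 0.63 and 0.18 beside 0.46 for all genes. A change of scaling moves all genes by nearly the same amount, so the kept order of the classes is no independent support. The size of the difference varied between settings. It was 0.0526 without control replicate 3 and 0.727 without g*Spns1*-cKO replicate 1, and with all genes of at least 1 count kept, which brings in the other 6 mitosis genes, the mitosis median was 0.263 and the difference -0.00984. Within each mouse, the mean log2(CPM + 0.5) of all 20 licensing and S phase genes, *Mcm10* included, was set against that of all 17 mitosis genes. It was greater by 2.21, 2.18 and 1.87 in control mice and by 1.82, 2.40 and 2.39 in g*Spns1*-cKO mice, with the lowest value again in g*Spns1*-cKO replicate 1. The added 0.5 compresses differences for genes near or under 0.5 CPM.

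The 6 mitosis genes that were not tested had at most 16 counts in any control. *Aurkb*, the kinase of the chromosomal passenger complex, had 6, 1 and 7 counts in control mice and 20, 1 and 8 counts in g*Spns1*-cKO mice. *Plk1*, the Polo-like kinase, had 6, 2 and 5 against 26, 8 and 12 counts. The checkpoint kinase gene *Bub1* had 3, 4 and 1 against 13, 0 and 0 counts, and the cyclin gene *Ccnb1* had 5, 4 and 16 against 20, 0 and 3 counts. *Cenpe* and *Cenpf*, which encode kinetochore proteins, had 1, 9 and 7 against 21, 3 and 3 counts, and 12, 1 and 7 against 19, 0 and 1 counts. Each of the 6 had its highest CPM of all mice in g*Spns1*-cKO replicate 1 except *Ccnb1*, which was at 0.632 CPM in control replicate 3 and at 0.556 CPM there. A count of 0 allows up to 3 counts, which corresponds to 0.0763 to 0.0834 CPM in the g*Spns1*-cKO libraries.

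Other genes of the same pathways changed in both directions. Among 55 further replication genes, 51 were tested, 7 rose (13.7%) and 9 fell (17.6%), with a median of 0.04, beside 21.3% and 20.5% of all genes. With scaling by library size only, 23 were higher (45.1%) and 2 lower (3.92%), beside 47.2% and 6.28% of all genes. The origin recognition subunit *Orc1* had 0, 2 and 1 counts in control mice and 14, 11 and 11 counts in g*Spns1*-cKO mice, a ratio of 8.87 (95% counting interval 2.80 to 45.0). *Orc1*, and *Uhrf1* below, passed the filter on low counts only through the g*Spns1*-cKO group, so their adjusted p (0.0110 for *Orc1*) is no independent support. Nor is the ratio of *Orc1*, which was computed by the same rule as that of *Fen1*. *Mtbp*, a partner of the origin-firing factor Treslin, rose from 39, 27 and 23 to 94, 144 and 109 counts (log2 fold change 1.52, adjusted p = 0.00229). *Uhrf1*, which maintains DNA methylation at the fork, had 12, 1 and 7 counts in control mice and 136, 28 and 36 counts in g*Spns1*-cKO mice (2.88, adjusted p = 0.0363), and its call was lost without control replicate 1, 2 or 3 or g*Spns1*-cKO replicate 1 (adjusted p = 0.0582, 0.0932, 0.110 and 0.0626) and in limma-voom (0.0543). The largest decreases were in the ribonuclease subunit *Rnaseh2a* (-0.80, adjusted p = 0.000865), the GINS subunit *Gins4* (-0.75, adjusted p = 0.000562) and the dUTPase *Dut* (-0.72, adjusted p = 0.00242). With scaling by library size only, *Dut* lost its call (adjusted p = 0.118), while *Rnaseh2a* and *Gins4* kept theirs.

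Among 82 further mitosis genes, 49 were tested, 4 rose (8.16%) and 6 fell (12.2%), with a median of 0.01. With scaling by library size only, 10 were higher (20.4%) and 2 lower (4.08%), beside 47.2% and 6.28% of all genes. The condensin subunit *Ncapg2* (log2 fold change 1.67, adjusted p = 0.000885), the passenger complex scaffold *Incenp* (1.16, adjusted p = 0.00555) and *Arhgap11a* (1.03, adjusted p = 0.0338) rose most. *Ncapg2* went from 30, 36 and 45 to 180, 161 and 140 counts, so that g*Spns1*-cKO replicate 1 did not stand apart there. The kinetochore subunits *Spc24* (-1.89, adjusted p = 7.37e-05) and *Spc25* (-1.47, adjusted p = 0.0182) and *Gtse1*, a microtubule-binding protein (-1.36, adjusted p = 0.0356), fell most. *Spc24* went from 761, 524 and 577 to 241, 250 and 192 counts. Of these 6 genes, *Arhgap11a* kept its call only without control replicate 3, *Spc25* lost it without g*Spns1*-cKO replicate 2 or 3 (adjusted p = 0.0556 and 0.0695), and *Gtse1* without control replicate 3 or g*Spns1*-cKO replicate 1 or 3 (0.165, 0.0762 and 0.124). *Gtse1* did not pass with scaling by library size only (0.114), upper-quartile scaling (0.0526) or limma-voom (0.0549) either. The values of *Arhgap11a* without each of the other mice were adjusted p = 0.0965, 0.105, 0.0918, 0.0567 and 0.0604.

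All 31 further cell cycle regulators were tested, 8 rose (25.8%) and 5 fell (16.1%), with a median of 0.18. With scaling by library size only, 17 were higher (54.8%) and 1 lower (3.23%), beside 47.2% and 6.28% of all genes. The CDK inhibitors *Cdkn1a* (p21) and *Cdkn1c* (p57) and the pocket protein *Rbl1* (p107) rose most. *Cdkn1a* went from 35, 47 and 78 to 290, 290 and 279 counts (log2 fold change 1.97, adjusted p = 0.000731), *Cdkn1c* from 30, 20 and 39 to 63, 210 and 132 counts (1.71, adjusted p = 0.0149) and *Rbl1* from 25, 39 and 26 to 154, 108 and 105 counts (1.61, adjusted p = 0.00166). The repressor *E2f7* (-1.78, adjusted p = 0.00921), the kinase *Cdk2* (-0.77, adjusted p = 0.00163) and the cyclin *Ccnd3* (-0.64, adjusted p = 0.0143) fell most. *Cdkn1c* lost its call without control replicate 1 or 2 (adjusted p = 0.0544 and 0.0616) and *Ccnd3* without g*Spns1*-cKO replicate 3 (0.0557). With scaling by library size only *Cdk2* and *Ccnd3* did not pass (adjusted p = 0.0667 and 0.363), and *E2f7* did (0.0261).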

How the data were processed

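Liver RNA-Seq counts of 6 mice, 3 control and 3 g*Spns1*-cKO by the sample labels, were analysed. The authors deposited 1 table of whole-number counts per gene and library, not normalized, made by a sequencing service. The submitters' processing notes list fastp, HISAT2 2.0.5, featureCounts 1.5.0-p3 and mm10, without their roles, and the strand setting is not given in the sources used here. The table also holds FPKM, a normalised signal per group, and the log2 fold change and p-values of the authors' own comparison, all deposited and not used here, and gene lengths, used for levels per kilobase.

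The 42 genes and the other lists were chosen with earlier results of these data known. Counts were tested in R 4.3.3 with edgeR 4.0.16 (filterByExpr, TMM, robust quasi-likelihood fit without covariates, Benjamini-Hochberg adjustment over 15449 genes, threshold 0.05). SE is the size of the log2 fold change over the square root of F. P-values measure the spread between mice, and 3 against 3 cannot go below 0.1 in an exact permutation test, so no such test was used. Libraries of a group differed by more than sampling noise (chi-square per gene 38.8 to 114), and none was merged. Alternatives were DESeq2 1.42.0, limma-voom (limma 3.58.1), other scalings, filters, a threshold of 0.01, a replicate block and leaving out each mouse. Same-numbered mice of the groups did not deviate together (Pearson r 0.0421, 0.0317 and -0.0266). With 3 mice per group this cannot exclude a shared litter, and the sources used here state no pairing by number. Ratios of low counts have exact conditional binomial intervals. All intervals and floors of 3 counts cover counting error only. Scripts were tested on simulated data. Of the genes outside the 42, the 3 with the largest change in each direction among those that passed are named for each list. Promoter windows of the RefSeq table were read with the GRCm38.p6 build, and every gene without an entry is left out of the motif counts.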

Additional observations from a re-analysis of the deposited data

How the results depend on the processing

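Of the 505 comparisons of a tested gene's call with that under an alternative, 461 kept their side of the threshold, 18 newly passed, 26 no longer passed and none that passed changed direction. With the library total as the only scaling, 7289 genes (47.2%) were higher and 970 (6.28%) lower. Of the 34 tested among the 42, 11 were higher (32.4%), and the licensing and S phase median was 0.627. Limma-voom called 5 of the 42 higher, without *Mcm4* (adjusted p = 0.0554) and *E2f2* (0.0540), and 5 lower, with 1 mitosis gene. Keeping every gene with at least 1 count gave 6 of the 42 lower, 2 mitosis genes lower, a mitosis median of 0.263 and a difference between the medians of -0.00984. At an adjusted p under 0.01, 3890 genes (1983 higher, 1907 lower) and 4 of the 42 (3 higher, 1 lower) passed, with 3 in the licensing and S phase class, 1 G1/S regulator and 21 of the other pathway genes. Leaving out each mouse in turn gave 6 to 12 of the 42 changed, 4 to 8 higher and 2 to 8 lower, 4 to 8 changed in the licensing and S phase class, 0 to 4 in mitosis, and a difference between the medians of 0.0526 to 0.727. For mitosis, the count of 4 arose without g*Spns1*-cKO replicate 1. With the replicate block, 6100 genes and 11 of the 42 passed, *E2f1* being added (-1.10, adjusted p = 0.0437). The calls of *Gtse1* and *Arhgap11a* were lost (adjusted p = 0.0669 and 0.0529). No pairing of the mice by number is stated, so whether this block is a fitting one was not tested. The causes of these changes were not tested. At 30350002 to 35295611 counts per library the mitosis genes had few counts, and 8 of the 42 genes could not be tested at this depth.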
